A study of Rattus norvegicus with 38 samples.

Results

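The 130 gene IDs described here were counted more often in cortical blood vessels than in clusters of cortical neurons in every group of a rat hypertension study. They were chosen from these same counts. An ID was kept where its mean vessel level was at least 20 CPM (its counts scaled to a common library total) and at least 4 times its mean neuron level, with 1 CPM added to both, in all 4 groups. The scaling used each library's total without ENSRNOG00000043866, the most abundant ID. Of 32883 IDs in the table, 134 passed both limits. The selection then set aside 4 of them, which it identifies as Acta2, Tagln and Myh11, proteins of the contractile apparatus of smooth muscle, and Ptgds, a prostaglandin D synthase. The higher vessel level is therefore the way the IDs were picked and is given below as a description, without a test. What was tested is whether the IDs differed between strains and stages. The choice did not compare strains or stages, although its limits applied to the vessel level and the vessel to neuron ratio of each group.

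Vessels and neuron clusters were cut by laser microdissection from the brains of 19 numbered animals, and each animal gave 1 library of each material. The control strain was Wistar, and the other strain was SHRSP, the stroke-prone spontaneously hypertensive rat. Early animals were 24 to 25 weeks old and late animals 32 to 34 weeks. Per material, Wistar gave 5 early and 4 late libraries and SHRSP gave 5 of each stage. The labels name no drug, transgene or deletion. The title of the series concerns signatures that hypertension leaves at different stages in the frontal brain. SHRSP and Wistar differ in genetic background as well as in blood pressure, and these cannot be told apart here.

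A cortical vessel is lined by endothelial cells, which in the brain are sealed by tight junctions and carry transporters that form the blood-brain barrier. Around the endothelium lie pericytes on capillaries or contractile smooth muscle on arterioles, with a basement membrane, perivascular fibroblasts and the end feet of astrocytes. Long-standing high pressure is known to thicken small arteries and to alter this barrier. A captured vessel contains all of these cells, along with blood left in its lumen, and in such bulk captures fewer cells of a type and less RNA per cell cannot be told apart. The files pair no ID with a gene name, so the 130 IDs could not be sorted by cell type or function and no sequence is shown for them.

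The titles name the vessel material Endothel, but no endothelial gene could be identified here. The material could be checked only through the 3 smooth muscle genes that the selection names, which do not check for endothelial cells. Acta2, smooth muscle actin, had a mean of 522 ± 574 CPM (SD, n = 5) in early Wistar vessels and 2457 ± 789 (n = 5) in early SHRSP vessels. In the neuron libraries of the same animals it had 19.5 ± 18.3 and 28.2 ± 12.1 CPM. Late vessels had 589 ± 234 CPM (n = 4) in Wistar and 1024 ± 466 (n = 5) in SHRSP. Tagln had 176 ± 211 CPM (n = 5) in early Wistar vessels and 1283 ± 508 (n = 5) in early SHRSP vessels. Its means in the neurons of these groups were 9.67 and 6.68 CPM. Myh11 had 623 ± 514 and 1351 ± 1133 CPM in the same vessel groups, and 20.1 and 14.5 CPM in their neurons. The gap was narrower in some single captures, with Tagln at 11.3 CPM in vessels and 8.21 in neurons of early Wistar animal 346. Acta2 and the other 3 genes set aside were part of the same choice, so these levels describe the capture and test nothing.

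Totals lay between 1612966 and 4963429 counts in vessels and between 1198386 and 4101901 in neurons. ENSRNOG00000043866 took 4.34 to 10.7% of the neuron counts of 8 animals and 20.4 to 35.5% of those of the other 11. The first 8 are called the low-share set below and the other 11 the high-share set. This split follows an abundant ID, not a label. It nearly matches the stage: all 9 late animals were high-share, and of the early animals only Wistar 349 and SHRSP 383 were. A difference between late and early animals therefore cannot be told apart from one between the library sets. Low-share vessel libraries also held fewer IDs, 4104 to 8752 with at least 1 count against 9875 to 11974.

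The 130 IDs were all present in each of the 11 high-share vessel libraries, with 0 zeros among 1430 values. In the 8 low-share vessel libraries between 77 and 123 of them had a count, and 192 of 1040 values, 18.5%, were 0. The 4084 other IDs that reached a vessel mean of 20 CPM in all 4 groups had zeros in 13.6% of values in the low-share libraries and in 0.185% in the high-share ones. The lowest number, 77, was in the vessel library of early SHRSP animal 377, which also had the smallest vessel total. In that library the typical member rested on very few counts, and across libraries the median count per member ranged from 1 to 410.5 in vessels. Of the 130, 45 had a count in all 19 vessel libraries and 80 in all 19 neuron libraries. A count of 0 set only an upper limit, and 3 counts corresponded to between 0.669 and 2.002 CPM in vessels.

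**Figure D1:**
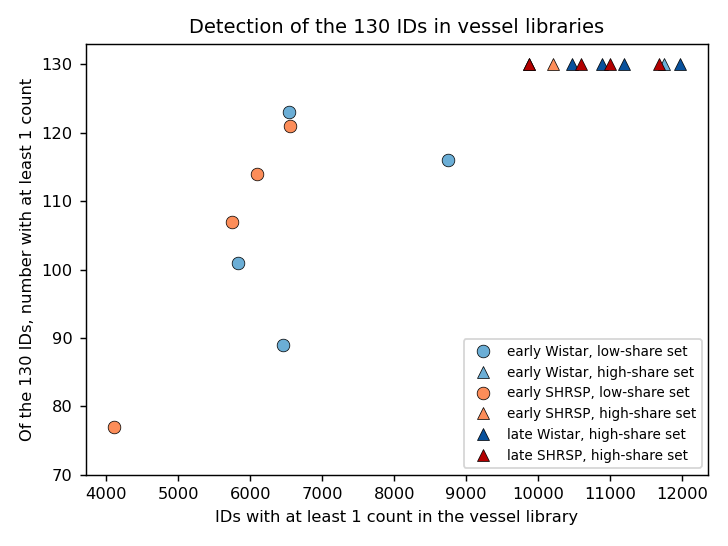
Number of the 130 IDs with at least 1 count (vertical axis) against the number of all IDs with at least 1 count (horizontal axis) in the 19 vessel libraries. Circles are low-share and triangles high-share libraries, and all triangles lie at 130 while the circles lie between 77 and 123.

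The IDs covered a wide range of abundance. Their vessel level, averaged over the 4 groups, ran from 32.5 to 4139 CPM with a median of 95.9, and 10 IDs reached 500 CPM. The 3 most abundant, ENSRNOG00000029886, ENSRNOG00000047321 and ENSRNOG00000008937, held 28.7% of the summed level, and the top 10 held 47.0%. Counts were made at 3' ends, so levels of different genes can be compared without regard to length. The order of the 130 by vessel level was similar between groups, with Spearman's rho between 0.71 and 0.87 over the 6 pairs of groups. This is a description across IDs, which share libraries.

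Taken between group means, the ratio of vessels to neurons was largest in SHRSP. Its median over the 130 IDs was 7.42 in early Wistar, 10.2 in late Wistar, 14.3 in early SHRSP and 14.5 in late SHRSP. Early Wistar gave the smallest of the 4 ratios for 81 IDs, late Wistar for 34, early SHRSP for 12 and late SHRSP for 3. The limits were thus set mostly by the Wistar groups: 407 IDs passed both limits in early Wistar alone and 911 in early SHRSP alone. In the neuron libraries the median level of the 130 lay between 5.30 and 7.26 CPM in all 4 groups, whereas in vessels it was 63.8 CPM in early Wistar, 71.9 in late Wistar, 128 in early SHRSP and 93.6 in late SHRSP. At least 10-fold ratios in all 4 groups were found for 35 IDs and at least 20-fold for 12.

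**Figure D2:**
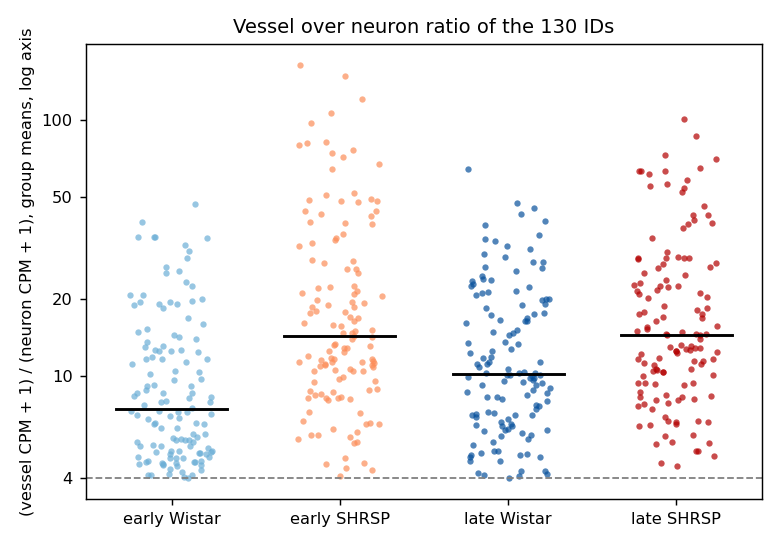
Ratio of mean vessel CPM to mean neuron CPM, with 1 CPM added to both, for each of the 130 IDs (points, log axis) in the 4 groups. Bars are medians and the dashed line is the limit of 4 that chose the IDs. The medians are 7.42, 14.3, 10.2 and 14.5 from left to right.

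Around the limits the values ran on without a gap. The ratio nearest above the limit was 4.004, for ENSRNOG00000013027 in late Wistar, and the nearest below was 3.98, for ENSRNOG00000054080 in early Wistar. For the level, ENSRNOG00000015904 lay just inside with 20.5 CPM and ENSRNOG00000007779 just outside with 19.5 CPM, both in early Wistar. Early Wistar animal 368 carried much of that group's mean: without it only 84 IDs passed, of which 80 were among the 130.

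Within single animals the enrichment was less uniform than the group means. Of the 130 IDs, 101 to 127 were at least 4 times higher in vessels than in the neuron library of the same animal in the 11 high-share animals, and 50 to 116 in the 8 low-share animals. Higher in vessels in all 19 animals, by any amount, were 25 IDs, and 8 were at least 4 times higher in all 19. For 18 IDs every vessel library lay above every neuron library. The choice used these same levels and no share over all IDs is given, so these counts only describe the 130. The median ratio over the 130 within an animal ran from 0.486 (animal 377) to 21.6 in early SHRSP. In early Wistar it ran from 1.81 to 22.2 (animal 368), so the early strains overlapped. Late animals had 9.92 to 25.2 in SHRSP and 8.44 to 12.7 in Wistar.

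The summed share of the 130 IDs in each library differed between the early groups in vessels. In early SHRSP vessels they took 3.81 to 4.36% of counts in all 5 animals. In early Wistar vessels they took 0.813, 0.819, 1.35, 1.92 and 3.53%, the last in animal 368. The groups did not overlap, although animal 368 came close to the lowest SHRSP value. Late SHRSP vessels held 1.68 to 3.76% and late Wistar vessels 1.63 to 2.504%, and these ranges overlapped. Leaving out the 10 most abundant IDs gave 1.84 to 2.31% in early SHRSP and 0.481 to 1.99% in early Wistar, where the ranges overlapped.

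Acta2, Tagln, Myh11 and Ptgds, set aside by the choice, were also more abundant in early SHRSP vessels on average. Their summed share in vessels was 0.746 to 1.36% in early SHRSP and 0.143 to 0.913% in early Wistar, with animal 368 again highest and above the lowest SHRSP value. Their part in the higher level of the 130 IDs was not tested. In neurons the 130 IDs took between 0.138 and 0.336% of counts. The highest neuron shares were in early animals, 0.140 to 0.289% in Wistar and 0.182 to 0.336% in SHRSP, and late animals had 0.138 to 0.169%.

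**Figure D3:**
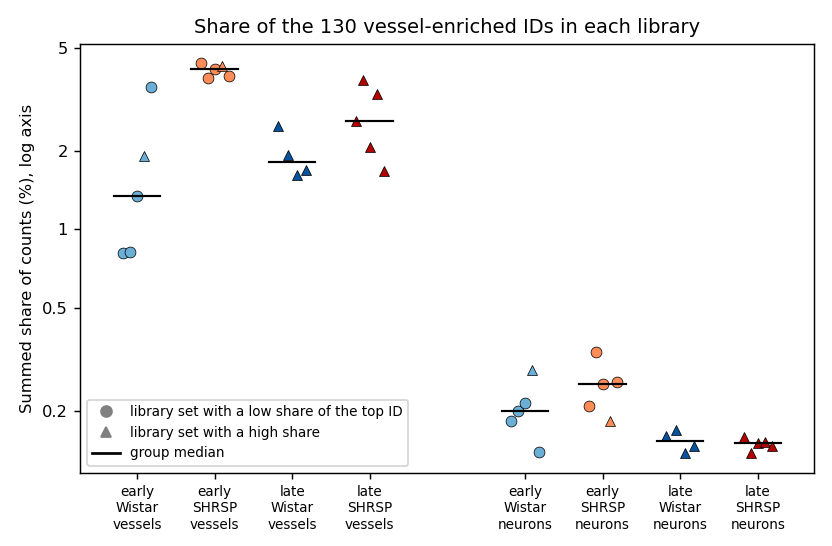
Summed share of the 130 IDs among the counts of each library, in percent on a log axis, for vessels (left) and neurons (right). Circles are low-share and triangles high-share libraries, and bars are group medians. The 5 early SHRSP vessel libraries, 3.81 to 4.36%, lie above the 5 early Wistar ones, 0.813 to 3.53%.

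Strains were compared in the vessel libraries with edgeR's quasi-likelihood test, fitted to all 11011 IDs that passed its filter on low counts, among them all 130. At the early stage 4 of the 130 were higher in SHRSP and 0 lower at a Benjamini-Hochberg adjusted p under 0.05, against 0.254% of all IDs called (0.218% called higher and 0.0363% lower). Folds pointed to SHRSP for 113 of the 130, 86.9%, and for 45% of all IDs. The median log2 fold of SHRSP over Wistar was 1.12 over the 130 and -0.20 over all IDs tested. Over the 4084 other IDs with a vessel mean of 20 CPM or more in all 4 groups it was 0.09, with 53.1% above 0. These other IDs share that limit and were not matched further to the levels of the 130. Quartiles of the log2 fold were -1.73 and 0.98 over all IDs, and 0.57 and 1.62 over the 130. At least 2-fold higher were 72 of the 130 and at least 2-fold lower 3. Most of these single differences did not pass the test: the median standard error of the 130 log2 folds was 1.17. The count of 4 depended on single animals. It was 1 without Wistar animal 340, 2 without SHRSP 374, 7 without SHRSP 377 and 10 without Wistar 368. Without SHRSP 383 it was 8 higher and 2 lower. The share of all IDs called in these fits is not given, so the counts show only how the result moved.

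ENSRNOG00000054890 had the smallest p among the 130. Its vessel level in early Wistar was 170.0, 241, 229, 334 and 694 CPM, and in early SHRSP 2599, 1252, 1765, 1745 and 1453 CPM. Every early SHRSP library lay above every early Wistar library. SHRSP was 5.66-fold higher (log2 fold SE 0.44), with an adjusted p of 3.55e-05 by edgeR's quasi-likelihood test with Benjamini-Hochberg adjustment. In neurons of the same early animals it lay between 2.03 and 49.5 CPM in Wistar and between 15.9 and 23.3 in SHRSP, and these overlapped. Within the 8 low-share animals alone its log2 fold was 2.44, and in the high-share animals alone 2.18. The latter did not pass the test, with 1 early animal per strain (adjusted p = 0.124 by edgeR's test; 2.24e-09 to 0.124 over the 28 alternatives tried).

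ENSRNOG00000008937 was the third most abundant of the 130. Early Wistar vessels had 396, 1160.3, 1263, 663 and 1269.9 CPM and early SHRSP vessels 4864, 3318, 1641, 2185 and 1817 CPM, again without overlap. It was 3.19-fold higher in SHRSP (log2 1.67, SE 0.33, adjusted p 0.000515 by edgeR's quasi-likelihood test with Benjamini-Hochberg adjustment). The call was lost with limma voom, in the high-share animals alone, and without Wistar animal 340 or SHRSP animal 374, where the log2 fold stayed at 1.22 or more in each. It was the most abundant of the 4 called IDs in neurons, at 98.1 to 219 CPM in early Wistar and 191 to 233 in early SHRSP.

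ENSRNOG00000005695 and ENSRNOG00000055962, named because only 4 IDs were called, were also higher in early SHRSP vessels. ENSRNOG00000005695 had 179, 152, 186, 278 and 1064 CPM in Wistar and 736, 679, 2891, 1566 and 1760.0 CPM in SHRSP. Wistar animal 368, at 1064, lay above the 2 lowest SHRSP libraries, so the groups overlapped. Its log2 fold was 2.04 (SE 0.45, adjusted p 0.00601 by edgeR's quasi-likelihood test with Benjamini-Hochberg adjustment). The call was lost in 11 of 28 alternatives, and the adjusted p ranged from 8.14e-06 to 0.980. ENSRNOG00000055962 had 52.6, 129, 27.2, 189 and 407 CPM in Wistar and 1195, 971, 686, 892 and 245 CPM in SHRSP, with animal 368 above the lowest SHRSP library. Its log2 fold was 2.45 (SE 0.57, adjusted p 0.0118 by the same edgeR test), and the call was lost in 9 of 28 alternatives.

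Among the 130, 5 IDs had every early SHRSP vessel library above every early Wistar one, against 0.263% of all IDs tested. Beside the 2 described above these were ENSRNOG00000019689, ENSRNOG00000020246 and ENSRNOG00000020676, named after their values were seen. ENSRNOG00000019689 had 0 to 104 CPM in Wistar and 148 to 356 in SHRSP. ENSRNOG00000020246 had 0.689 to 309 CPM in Wistar and 313 to 601 in SHRSP, and ENSRNOG00000020676 had 0 to 49.9 and 55.2 to 712. The gap was narrow for the last 2, and none of these 3 passed the test across IDs. In the opposite direction 0 of the 130 were separated, against 0.454% of all IDs.

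**Figure D4:**
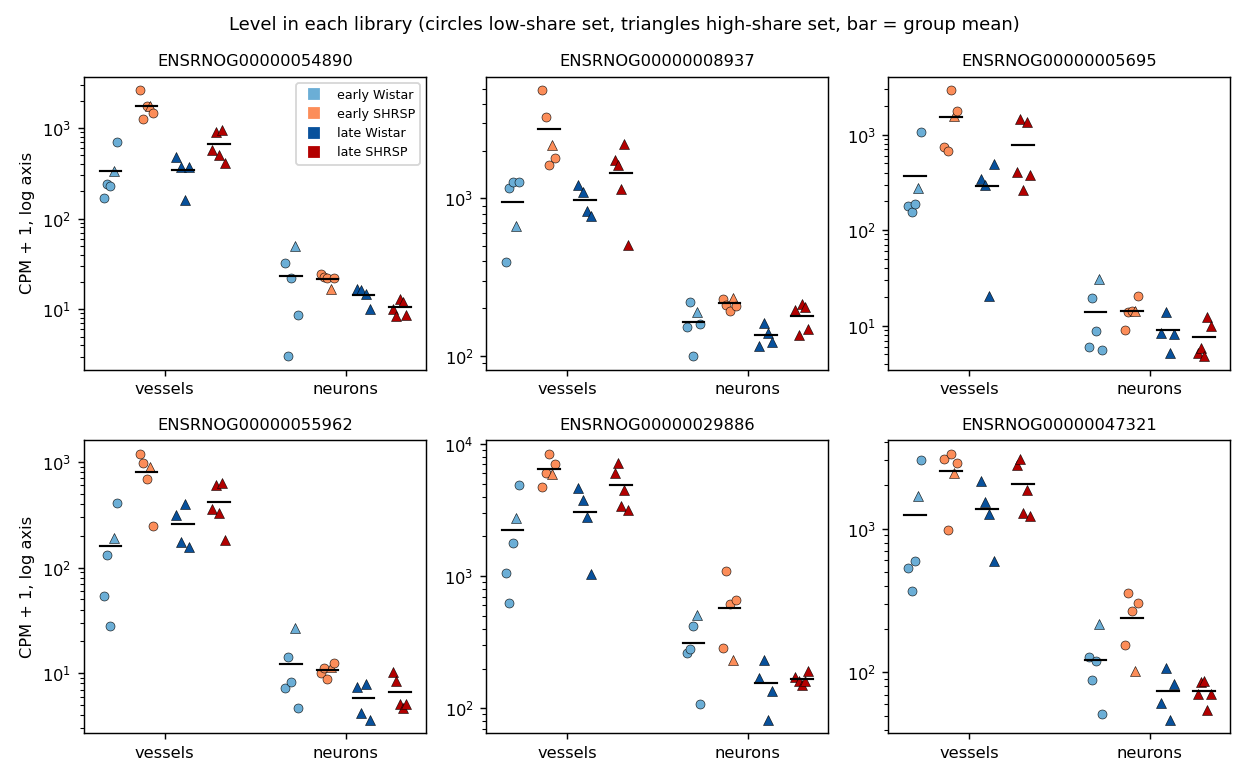
Level in each library (CPM with 1 added, log axis) of the 4 IDs called in early vessels and of the 2 most abundant IDs. Colours are groups, circles low-share and triangles high-share libraries, and bars are group means. ENSRNOG00000054890 and ENSRNOG00000008937 have no overlap between early SHRSP and early Wistar vessels, and ENSRNOG00000029886 and ENSRNOG00000047321 are lower in late than in early SHRSP neurons on average.

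At the late stage 0 of the 130 were called by edgeR's quasi-likelihood test, as were 0% of all IDs. At an unadjusted p under 0.05 there were 3 of the 130, against 0.926% of all IDs, and DESeq2 and limma voom also called 0 of the 130. Folds pointed to SHRSP for 95 of the 130, against 49.5% of all IDs. The median log2 fold was 0.36, against -0.01 over all IDs and -0.02 over the other IDs of 20 CPM or more. Quartiles of the log2 fold were -0.42 and 0.43 over all IDs, and -0.01 and 0.65 over the 130. At least 2-fold higher were 12 of the 130 and at least 2-fold lower 1. Folds were above 0 at both stages for 84 of the 130 and below 0 at both for 6.

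ENSRNOG00000054890 had 481, 373, 161 and 372 CPM in late Wistar vessels and 567, 895, 498, 939 and 413 CPM in late SHRSP vessels. The ranges overlapped, and its log2 fold was 0.91 (SE 0.45, not called). ENSRNOG00000005695 had 345, 292, 19.6 and 491 CPM in late Wistar and 406, 1456, 261, 1359 and 377 CPM in late SHRSP, with a log2 fold of 1.39 (SE 0.47, not called). ENSRNOG00000001469, named after its values were seen, was the 1 ID of the 130 whose late strains did not overlap, against 0.654% of all IDs tested. It had 29.3 to 61.1 CPM in Wistar and 62.4 to 225 in SHRSP.

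**Figure D5:**
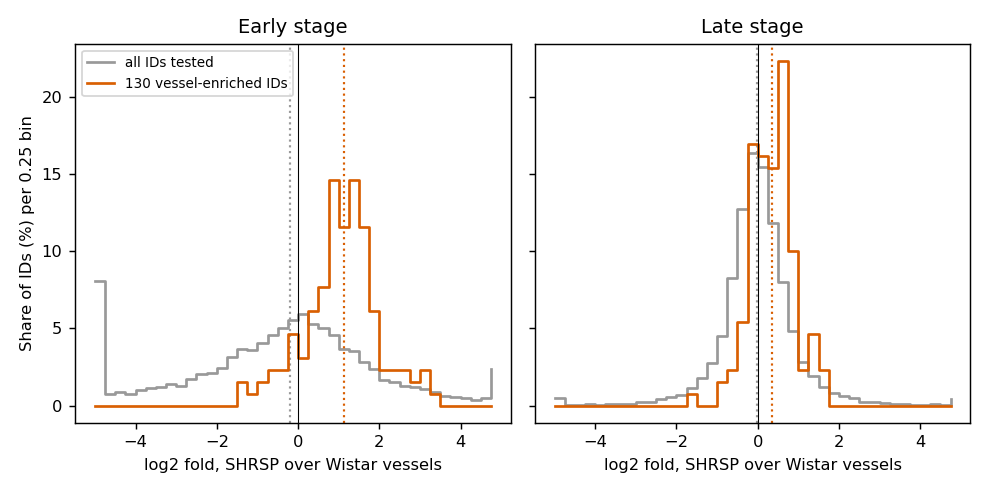
Distribution of the log2 fold of SHRSP over Wistar in vessels at the early and the late stage, as the share of IDs per bin, for all 11011 IDs tested (grey) and for the 130 IDs (orange). Dotted lines are medians, at 1.12 and -0.20 early and at 0.36 and -0.01 late, and values beyond the axis are drawn in the end bins.

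As the mean of both stages, 3 of the 130 were higher in SHRSP vessels and 0 lower, against 0.0817% of all IDs called (0.0727% called higher). All 3 were among the 4 called at the early stage, with which this contrast shares libraries. ENSRNOG00000054890 was 3.26-fold higher in SHRSP (log2 1.71, SE 0.31, adjusted p 0.000136 by edgeR's quasi-likelihood test with Benjamini-Hochberg adjustment) and kept its call in all 26 alternatives tried. ENSRNOG00000005695 was 3.29-fold higher (log2 1.72, SE 0.33, adjusted p 0.000369 by the same edgeR test) and lost its call in 7 of 26. ENSRNOG00000008937 was 2.16-fold higher (log2 1.11, SE 0.24, adjusted p 0.00534 by edgeR) and lost its call in 9 of 26. For the mean of both stages the count was 8 without Wistar animal 368 and 6 without SHRSP animal 377, with 0 lower in either.

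Whether the strain difference changed with stage was tested as an interaction. None of the 130 was called by edgeR's quasi-likelihood test, against 0.00908% of all IDs, and 6 had an unadjusted p under 0.05, against 7.16% of all IDs. DESeq2 and limma voom called 0. The change was above 0 for 26 of the 130 and for 54.4% of all IDs. Its median, late less early, was -0.69 log2 over the 130 and 0.21 over all IDs. Over the other IDs of 20 CPM or more it was -0.11, with 45.8% above 0. ENSRNOG00000054890 had a change of -1.59 (SE 0.60) and ENSRNOG00000008937 of -1.13 (SE 0.46), and neither was called. The larger early difference of the 130 was therefore not shown to differ from the late one for any single ID.

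Comparing stages within a strain, 0 of the 130 were called in SHRSP vessels by edgeR, against 0.00908% of all IDs. At an unadjusted p under 0.05 there were 14 of the 130, 10.8%, a smaller share than the 13.9% of all IDs. Levels were lower late for 106 of the 130 and higher for 24, where 59.2% of all IDs were higher. The median log2 fold was -0.74, against 0.45 over all IDs and -0.21 over the other IDs of 20 CPM or more. DESeq2 called 2 lower, and the share of all IDs called is not given for this or the other alternatives below. With limma voom the medians were 0.77 over the 130 and 2.17 over all IDs, and 6 were called higher and 6 lower. The sign of the median over the 130 thus depended on the tool, while it lay below that of all IDs with both. Without SHRSP animal 383, the high-share library of that early group, edgeR called 7, of which 2 were higher and 5 lower, and without SHRSP animal 377 it called 1 lower. ENSRNOG00000054890 had the smallest p, with a log2 fold of -1.66 (SE 0.42). It was called in 6 of 27 alternatives.

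In Wistar vessels 0 of the 130 were called between stages by edgeR, against 0.00908% of all IDs, and 3 had an unadjusted p under 0.05, against 3.64% of all IDs. DESeq2 and limma voom called 0. Folds were above 0 for 67 of the 130, 51.5%, and for 57.8% of all IDs. The median log2 fold, late over early, was 0.03 over the 130 and 0.21 over all IDs. Over the other IDs of 20 CPM or more it was -0.06, with 46.8% above 0, so the 130 lay between these 2 backgrounds. ENSRNOG00000015036 had the smallest p, with 121, 101, 147, 95.1 and 345 CPM early and 32.7, 42.3, 7.86 and 61.5 CPM late. The ranges did not overlap, but its log2 fold of -2.29 (SE 0.83) did not pass the test. In SHRSP it had 408, 311, 482, 367 and 1194 CPM early and 35.5, 176, 40.7, 325 and 41.3 CPM late, with a log2 fold of -2.35 (SE 0.77, not called).

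Neurons held these IDs at low counts, with a median of 14 counts per member, and 105 of the 130 passed the filter there. They passed through any group in which they were high enough, so their counts are not those of all 130. Between strains, as the mean of both stages, 0 of the 105 were called by edgeR, against 0.674% of all IDs. At an unadjusted p under 0.05 there were 13, against 7.75% of all IDs, and DESeq2 and limma voom called 0. Without Wistar animal 343 edgeR called 1. The median log2 fold of SHRSP over Wistar was 0.01 over the 105, with 55 above 0 against 50.1% of all IDs, and 0.00 over all 10833 IDs tested.

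Between stages, neurons showed calls in both strains, but for a smaller share of the 105 than of all IDs. In SHRSP 6 of the 105, 5.71%, fell and 0 rose, against 8.85% of all IDs called (2.73% called lower and 6.12% higher). Folds were above 0 for 24 of the 105, against 44.3% of all IDs. ENSRNOG00000029886, the most abundant of the 130, had 285, 1095, 609.8, 230.5 and 655 CPM in early SHRSP neurons and 172, 159, 149.6, 159 and 190.4 CPM in late ones. All late values lay below all early values. Its log2 fold was -1.77 (SE 0.39, adjusted p 0.0120 by edgeR's quasi-likelihood test with Benjamini-Hochberg adjustment). ENSRNOG00000047321 went from 153, 356, 268, 101 and 304 CPM to 70.1, 84.8, 85.5, 53.9 and 69.9 CPM. These groups did not overlap either, and its log2 fold was -1.67 (SE 0.34, adjusted p 0.00691 by the same edgeR test). The count of 6 was 11 without Wistar animal 343 and 3 without any 1 of SHRSP animals 374, 377, 379, 380, 382, 384 and 386.

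The high-share early animals lay at opposite ends of their groups for ENSRNOG00000029886 and ENSRNOG00000047321 in neurons. In early SHRSP the lowest of the 5 neuron libraries for both was that of animal 383. In early Wistar the highest for both was that of animal 349, at 505 CPM against 106 to 417 in the other 4 for ENSRNOG00000029886 and at 217 CPM against 50.4 to 127 for ENSRNOG00000047321. With the library set as a term, or in the high-share animals alone, neither was called, and 0 of the 130 were called in either strain (edgeR's adjusted p reached 0.976 for both over the 27 alternatives, from 0.000166 for ENSRNOG00000047321 and 0.000327 for ENSRNOG00000029886).

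In Wistar neurons 4 of the 105, 3.81%, fell and 0 rose between stages, against 9.31% of all IDs called (3.47% called lower and 5.84% higher). Folds were above 0 for 34 of the 105, against 48.1% of all IDs. ENSRNOG00000016957 had 23.9, 67.4, 22.7, 39.3 and 29.7 CPM early and 9.02, 9.30, 7.38 and 4.90 CPM late, without overlap. Its log2 fold was -2.20 (SE 0.41, adjusted p 0.00469 by edgeR's quasi-likelihood test with Benjamini-Hochberg adjustment). ENSRNOG00000010263 had 61.4, 53.6, 48.8, 62.9 and 115 CPM early and 16.4, 24.7, 22.7 and 24.1 CPM late, with a log2 fold of -1.58 (SE 0.29, adjusted p 0.00469 by the same edgeR test). The early values lay above the late ones in each case, the high-share animal 349 included. The count of 4 was 9 without animal 349, with 4 higher and 5 lower, and 2 without any 1 of the 4 late animals. Only ENSRNOG00000011796, named after its values were seen, was called in both strains. Its log2 fold was -1.45 (SE 0.42, adjusted p 0.0336 by edgeR) in SHRSP and -1.50 (SE 0.45, adjusted p 0.0382 by edgeR) in Wistar. In each strain the call was lost in 11 of 27 alternatives. These included the library set as a term and the high-share animals alone.

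The strain difference in vessels was also set against that in neurons over all 38 libraries, with the animal as a block. Of the 130, 0 were called by edgeR's quasi-likelihood test, against 0% of 12117 IDs. At an unadjusted p under 0.05 there were 9, of which 8 were larger in vessels, against 5.66% of all IDs in either direction and 0.569% larger in vessels. DESeq2 called 5 of the 130 and limma voom 0, and edgeR called 1 without Wistar animal 368. The share of all IDs called with these alternatives is not given here. The smallest p belonged to ENSRNOG00000005695, with 1.94 log2 (SE 0.59), and ENSRNOG00000054890, with 1.75 (SE 0.55). The difference was above 0 for 88 of the 130, against 29.2% of all IDs, with a median of 0.51 against -0.69.

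The IDs did not vary as one block. After group means were taken out, the median correlation between pairs of the 130 over the 19 vessel libraries was 0.26. It was 0.12 for the other IDs of 20 CPM or more, and 75.8% of pairs of the 130 were above 0. The points share libraries, so this is a description. Among the most abundant, ENSRNOG00000029886 and ENSRNOG00000047321 stayed closest together, with a correlation of 0.87, and the first was 1.56 to 6.18 times as high as the second in vessels and 1.63 to 3.48 times in neurons. ENSRNOG00000054890 was the ID closest to Ptgds, at 0.89, and ENSRNOG00000007726 the one closest to Acta2, at 0.90. These were picked as the highest of 130 and describe only these libraries.

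Spread between animals was larger early than late. The median coefficient of variation of the 130 in vessels was 1.001 in early Wistar and 0.994 in early SHRSP, and 0.430 and 0.493 in the late groups. For the other IDs of 20 CPM or more it was 0.759, 1.09, 0.365 and 0.376 in the same order of groups.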

How the data were processed

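The authors deposited whole-number counts per Ensembl gene ID for 38 libraries, treated here as raw counts. RNA came from laser-microdissected tissue and went into 3' mRNA libraries, per the labels' protocols. Alignment and counting tools are listed in the submitters' processing notes as STAR 2.5.3a and HTSeq 0.6.1, beside DESeq2 1.18.1 and FastQC 0.11.5. Build, annotation and strand setting were not given in the sources used here, so overlapping genes and near-identical copies cannot be separated. Reads near 3' ends are lost where an annotated end is misplaced. Of 32883 IDs, 0 matched a name in the reference table, so the planned gene lists, cell type markers and promoters could not be applied.

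Groups followed the labels. The 130 members and all lists were chosen with earlier results of these data known. Levels are CPM over totals without ENSRNOG00000043866. Tests used edgeR 4.0.16 in R 4.3.3 (TMM scaling, its group-based filter on low counts, robust quasi-likelihood F test, two-sided), fitted within each material over all 19 libraries and across materials over 38 libraries with the animal as a block; adjusted p-values are Benjamini-Hochberg over all IDs tested, with a threshold of 0.05, and the code was tested on simulated data. A standard error (SE) is the log2 fold divided by the square root of F. The robust fit draws the spread of each ID toward that of the other IDs. An SE or p-value therefore does not measure that ID's own spread between animals alone. Alternatives were DESeq2 1.42.0 (test, and its size factors in edgeR), limma 3.58.1 (voom), no filter, the library set as a term or alone, the 2 compared groups alone, each animal left out, and other limits of the rule. Counts of calls under these alternatives are given without the share of all IDs called. They show only how far a count depended on the setting. Where names are missing, at most the 2 higher and 2 lower IDs of smallest p are named per contrast. Others are said to be chosen after their values were seen.

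Replicates are separately numbered animals, and their spread includes that of cutting and library making. The block rests on the animal number in the titles; deviations of the 19 pairs of libraries correlated between -0.23 and 0.40 (median 0.04, 4 pairs over 0.1). Among 72 pairs of libraries within groups the smallest chi-square per degree of freedom was 4.88, so none was a repeated library. Limits from counts cover counting error only.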

Additional observations from a re-analysis of the deposited data

Results flagged for a closer look

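Of 102 groups of 4 or 5 libraries examined for the named IDs and for the summed measures, 8 had a library far from the others by Dixon's criterion at 95%, which chance passes in about 1 in 20 groups. In early Wistar vessels animal 368 was the highest library for ENSRNOG00000005695 (1064 CPM, the others up to 278), ENSRNOG00000011796 (255 CPM, the others up to 39.99), ENSRNOG00000015036 (345 CPM, the others up to 147) and ENSRNOG00000016957 (747 CPM, the others up to 266). The neuron library of the same animal was highest for ENSRNOG00000010263 (115 CPM, the others up to 62.9). ENSRNOG00000015036 was highest in early SHRSP vessels in animal 386 (1194 CPM, the others up to 482) and in early Wistar neurons in animal 343 (67.4 CPM, the others up to 23.5). The neuron library of early SHRSP animal 374 held the fewest of the 130 IDs in its group (119, the others 127 to 130).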

How the results depend on the processing

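Where the fold of a named ID was followed over the alternatives, no strain or stage comparison changed its direction. This was not followed for ENSRNOG00000019689, ENSRNOG00000020246, ENSRNOG00000020676 and ENSRNOG00000001469, nor for ENSRNOG00000015036 in SHRSP vessels. For the mean strain difference in vessels, 3 calls became 1 with voom, with the library set as a term, and without animals 349 and 383. The early strain difference, with 4 calls, gave 8 with DESeq2's size factors, 9 with DESeq2, 0 in the high-share animals alone and 10 without animals 349 and 383. In SHRSP vessels the stage comparison went from 0 calls to 2 with DESeq2, 12 with voom, 7 without animals 349 and 383 and 2 in those groups alone. In SHRSP neurons 6 calls became 3 with voom, 0 with the set as a term, 0 in the high-share animals and 12 in the 2 groups alone; in Wistar neurons 4 became 2 without a filter, 0, 0 and 2 in the 2 groups alone. Over the members, voom turned the median log2 stage difference to 0.77 in SHRSP vessels and to 0.14 in Wistar neurons. The strain difference in vessels less that in neurons gave 5 calls with DESeq2 and 0 with no replicate block. Vessels against neurons itself was not tested. The list itself held 72 IDs at a ratio of 6, 79 at 40 CPM and 74 on medians. With 1 animal left out the counts ranged from 2 to 8 (strain, mean), 1 to 10 (strain, early) and 0 to 7 (stage, SHRSP vessels). They ranged from 0 to 1 (strain, neurons), 3 to 11 (stage, SHRSP neurons) and 2 to 9 (stage, Wistar neurons). For the strain difference in vessels less that in neurons they ranged from 0 to 1, and the list held 84 to 150 IDs. The other 3 vessel comparisons gave 0 throughout. Shares of all IDs called are not given beside these counts. Beyond the alternatives that use fewer animals or IDs, the cause was not tested. Not run were the fits to 2 groups where a contrast needs all 4, and the low-share animals alone where it needs late ones.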
